A study of Mus musculus with 2 samples.

Results

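H3K36me2, histone H3 dimethylated at lysine 36, was examined at 10 genes grouped by name as suppressor molecules of regulatory T (Treg) cells. These were Entpd1, Nt5e, Lrrc32, Il10, Ebi3, Nrp1, Gpr83, Izumo1r, Capg and Gzmb, a list of names that uses no threshold on the values here. Each gene was measured over its RefSeq gene body (GRCm38.p6, the assembly of mm10) with 20 kb on either side, a stretch called its window here. The 10 genes stand among 21631 protein-coding genes on chromosomes 1 to 19 and X. Together the windows spanned 775 kb, counted once where they overlapped. They held 54 of the 39745 regions of the knockout list and 72 of the 54527 regions of the wild-type list.

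The study profiled Treg cells from the spleen of C57BL/6 mice in 2 libraries, made with an in situ ChIP kit in which a transposase cuts the DNA around antibody-bound chromatin. The KO library was from mice carrying a Treg conditional knockout of Nsd2, and the WT library from wild-type mice. The sources used here give neither the Cre driver, the age and sex of the animals, the number pooled, nor the antibody. With 1 library per genotype no difference below has a replicate error, and no p-value is given. Regions were called by the authors in each library on its own, from 14789700 KO tags and 17158154 WT tags. A smaller share of cells carrying the mark and less of it per cell cannot be told apart in such data.

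NSD2 is a methyltransferase that places H3K36me2, a mark spread over broad stretches of active chromatin within and between genes. Treg cells restrain other immune cells by several routes. They turn extracellular ATP into adenosine, hold latent TGF-beta on their surface, secrete inhibitory cytokines, and in some settings kill target cells with granzymes. The 10 genes sample each of these routes, along with surface receptors by which Treg cells are commonly recognised and Capg, which encodes an actin-capping protein.

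The labelled cell type was set beside marker genes. Regions took up 16.6% of the gene bodies of the 5 Treg markers in KO and 15.0% in WT, with 4 of 5 holding a region in each library and Ctla4 at 0 in both. Of all coding genes with a region in their window in either library, 56.5% held a body region in KO and 61.8% in WT. T cell markers were covered to 21.7% in KO and 17.2% in WT, with Cd28 at 0 in both. B cell markers were covered to 1.61% in KO and 2.59% in WT, and myeloid and dendritic markers to 2.99% in KO and 2.54% in WT. The genes Ms4a1, Cr2, Lyz2, Adgre1 and Cd14, which mark B cells and myeloid cells, had no region in their bodies in either library. Other markers of those cells were covered, with Cd79b at 48.8% of its body in KO and 39.8% in WT, Cd79a at 22.9% in KO and 14.7% in WT, and Spi1 at 15.2% in KO and 8.90% in WT. The part of such cells in the values below was not tested. Erythroid markers held 0 bp in KO and 761 bp in WT. Nsd2 itself held 500 bp in its body in KO and 0 bp in WT, which does not check the deletion, since a region of a histone mark does not show whether an exon is present.

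For 8 of the 10 genes RefSeq promoter windows of GRCm38.p6 were at hand, 9 in all, each reaching from 250 bases before to 50 bases after a start. Of these 9, 3 lay in a KO region, 3 in a WT region and 2 in both. Over the 21045 promoter windows of coding genes the shares were 10.7% in KO, 10.7% in WT and 5.42% in both. The 4 windows that lay in a region are printed because those of Izumo1r and Capg were marked in both libraries, and those of Gpr83 and Nt5e in 1 library each. Marked means inside a called region here, and a stretch outside one may still carry signal too low to be called. Each is written 5′ to 3′ on the gene's strand, with CpG dinucleotides in capitals.
Izumo1r, chr9:14903718-14904017, minus strand, in a region of both libraries: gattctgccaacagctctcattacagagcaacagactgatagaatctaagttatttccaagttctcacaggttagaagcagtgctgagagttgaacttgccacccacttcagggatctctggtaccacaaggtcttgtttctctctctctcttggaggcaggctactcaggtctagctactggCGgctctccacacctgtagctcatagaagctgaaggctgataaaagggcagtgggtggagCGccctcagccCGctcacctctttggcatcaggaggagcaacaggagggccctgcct
Capg, chr6:72549397-72549696, plus strand, in a region of both libraries: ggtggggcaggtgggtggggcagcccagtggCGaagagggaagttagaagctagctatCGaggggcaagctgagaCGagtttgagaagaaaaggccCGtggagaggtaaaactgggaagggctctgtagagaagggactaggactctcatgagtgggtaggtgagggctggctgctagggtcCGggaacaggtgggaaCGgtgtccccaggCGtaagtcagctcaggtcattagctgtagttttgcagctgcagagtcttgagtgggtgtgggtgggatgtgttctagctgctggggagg
Gpr83, chr9:14859960-14860259, plus strand, in a KO region only: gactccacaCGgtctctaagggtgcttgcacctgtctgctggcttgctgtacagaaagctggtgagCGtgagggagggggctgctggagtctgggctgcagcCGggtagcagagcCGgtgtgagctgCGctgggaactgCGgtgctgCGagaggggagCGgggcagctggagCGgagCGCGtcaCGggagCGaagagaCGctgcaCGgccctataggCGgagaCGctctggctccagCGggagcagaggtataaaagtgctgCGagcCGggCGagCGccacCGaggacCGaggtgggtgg
Nt5e, chr9:88327359-88327658, plus strand, in a WT region only: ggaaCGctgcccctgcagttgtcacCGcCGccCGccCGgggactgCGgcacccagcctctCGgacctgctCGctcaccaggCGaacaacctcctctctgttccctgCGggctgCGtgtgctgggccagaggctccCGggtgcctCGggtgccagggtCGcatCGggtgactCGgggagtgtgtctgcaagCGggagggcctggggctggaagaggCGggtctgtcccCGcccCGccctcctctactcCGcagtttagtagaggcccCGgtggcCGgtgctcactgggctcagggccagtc

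The printed windows differ in base composition. The Izumo1r and Capg windows held 3 and 7 CpG, below the median of 13 over all promoter windows. The Gpr83 and Nt5e windows held 24 and 23 CpG, above that median. Promoter windows in regions genome-wide had a median of 21 CpG in KO and 19 in WT, so the Izumo1r and Capg windows were poorer in CpG than most marked promoters. Of 6 motifs searched on both strands, none matched in the Izumo1r or Capg window. The Nt5e window held 4 matches to the Sp motif GGGCGG, found in 46.7% of promoter windows, and overlapping matches were counted. A match is a run of letters and not evidence of binding. The Gpr83 window held 1 match to TATAAA, found in 12.7%. The other motifs were the forkhead TGTTTAC (3.03% of windows), the Runx TGTGGTT (4.74%), the Ets CCGGAAG (11.7%) and the STAT TTCNNNGAA (7.76%), and none of these was in the 4 printed windows. Among the windows in no called region, that of Gzmb held 1 Runx and 1 STAT match, that of Ebi3 1 Ets match and that of Nrp1 1 Sp match.

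**Figure D1:**
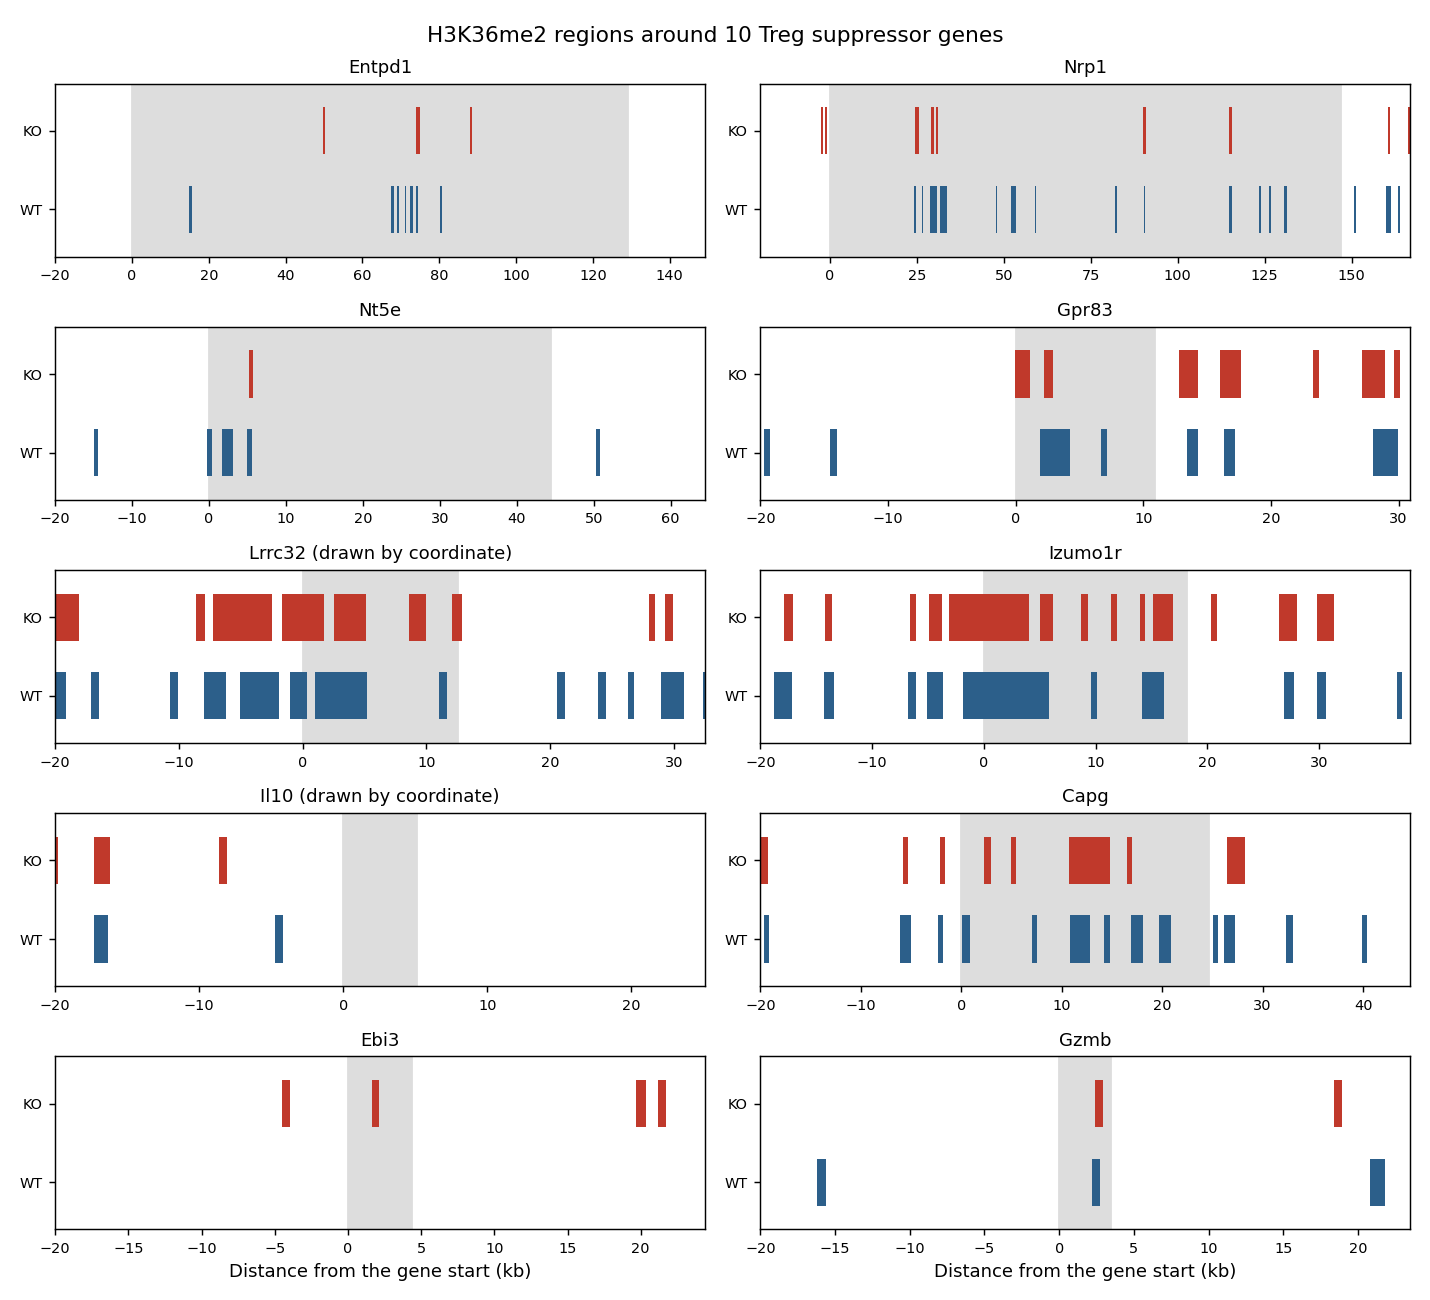
H3K36me2 regions of the KO library (red, upper row) and the WT library (blue, lower row) in the windows of the 10 genes. The x axis gives distance from the gene start in kb, in the direction of transcription for 8 genes and by coordinate for Lrrc32 and Il10, and the grey band is the gene body. Lrrc32 and Izumo1r carried clusters of long regions at similar places in both libraries, while Entpd1 and Nrp1 carried fewer regions in KO, 3 and 9, than in WT, 7 and 16.

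Taken over the 10 windows, covered length was 60238 bp in KO and 74620 bp in WT, or 7.77% of the windows in KO and 9.63% in WT. KO thus had 80.7% of the WT length. Over the windows of all coding genes it had 76.0%, and over chromosomes 1 to 19 and X 74.3%, somewhat below the percentage for the suppressor genes. By number, KO regions were 75.0% of WT regions (51.7 to 108, exact binomial 95% interval for counting error, with regions taken as independent), against 72.8% for the lists as a whole. These percentages depend on the calling threshold, which was stricter in KO when scaled to equal tag totals. WT regions of 500 bp were then held to the KO threshold by their deposited score. The members came to 88.4% by length and 91.5% by number, and the whole lists to 92.1% and 104%. The median suppressor gene window was covered to 4.53% in KO and 6.36% in WT, against 1.76% in KO and 2.42% in WT over the 15534 coding genes with a region in either library.

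The net difference lay almost wholly in the long genes, and Nrp1 alone gave -8309 bp. Entpd1, Nt5e and Nrp1, the 3 members of 40 kb or more, together held 8742 bp in KO and 22478 bp in WT, a difference of -13736 bp of a total of -14382 bp. In KO that was 38.9% of the WT length, and the number of regions was 46.4% of WT (13 in KO and 28 in WT, exact interval 22.1 to 92.6). The other 7 members held 51496 bp in KO and 52142 bp in WT, or 98.8%. That is a net of differences in both directions, from -1884 bp for Capg to 2215 bp for Ebi3. The same split, chosen after the values were seen, gave 70.0% over all coding genes of 40 kb or more and 86.7% over those shorter. Long genes thus had less cover in KO across the genome too. The KO percentage was lower still in the 3 long members, a difference that was not tested. Gene bodies of the 10 members held 29971 bp in KO and 41457 bp in WT (72.3%), and the flanks 30267 bp in KO and 33163 bp in WT (91.3%).

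A window was counted as lower or higher in KO when its covered length differed at least 2-fold and by at least 1000 bp. By this rule of size 4 of the 10 windows were lower (Entpd1, Nt5e, Nrp1 and Gzmb) and 1 was higher (Ebi3). Over all 15534 measured coding genes 21.1% were lower and 7.58% higher, and with 10 genes these counts do not set the members apart from genes in general. Among coding genes of 40 kb or more 29.4% were lower and 4.86% higher, and among shorter ones 17.1% and 8.87%. All 3 long members were lower. The median difference over the 10 members was -745.5 bp, against -500 bp over all measured genes.

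**Figure D2:**
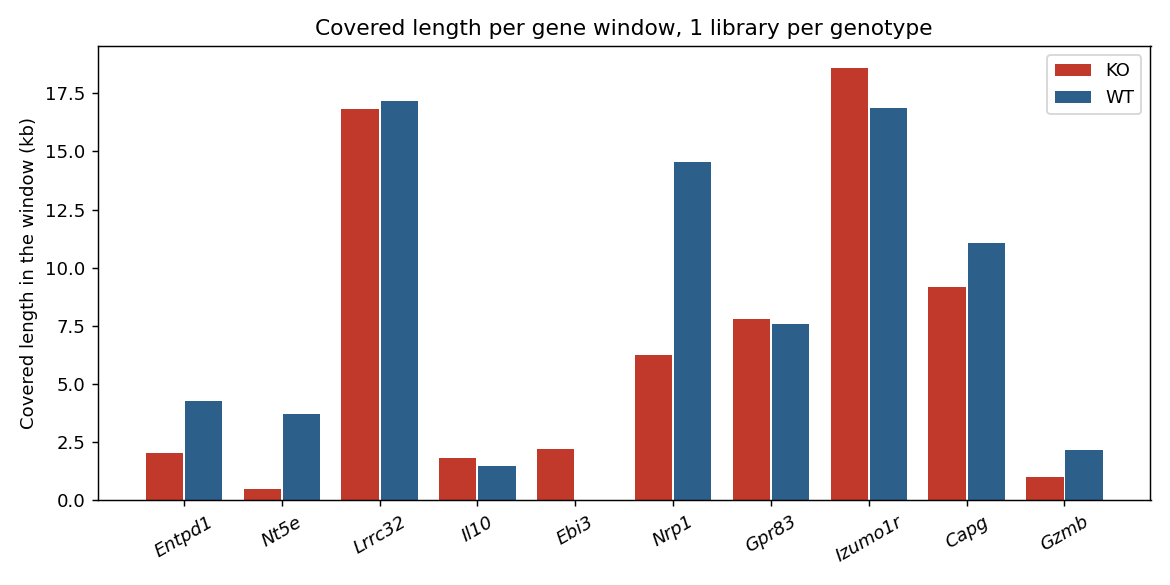
Covered length in kb in the window of each gene, 1 bar per library, KO (red) left of WT (blue). Bars have no error because each genotype had 1 library. Nt5e, Nrp1, Entpd1 and Gzmb had less than 50% of the WT length in KO, and Ebi3 had cover in KO alone.

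The adenosine pathway genes both had less cover in KO. Entpd1 encodes CD39, which breaks down extracellular ATP and ADP, and Nt5e encodes CD73, which turns the AMP so formed into adenosine. The Entpd1 window (body at chromosome 19, 40612366 to 40741602) held 3 regions and 2016 bp in KO against 7 regions and 4255 bp in WT, all inside the gene body. In WT, 5 of the regions stood close together in the body, between 67.5 and 74.4 kb from the gene start. KO had 1 region there, of 1016 bp, which spanned the last of the 5 and ran on past it. That region carried 15.4 normalised tags per kb in KO (Poisson 95% interval 9.73 to 23.0), against 16.3 (8.92 to 27.4) in the WT region of 500 bp it overlapped. Normalised tags are the authors' tag counts scaled to 10000000 tags per library. The other KO regions, 49.8 and 87.9 kb from the start, had no WT counterpart, and neither of the gene's promoter windows lay in a region of either library. The Entpd1 window passed the rule of size as lower under 3 of 8 alternative settings, and counting only regions of at least 1 kb turned it round, to 1016 bp in KO and 0 bp in WT.

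Nt5e (chromosome 9, 88327609 to 88372089) had the lowest KO percentage of the 9 windows marked in WT. Its window held 1 region and 500 bp in KO against 5 regions and 3688 bp in WT, which is 13.6%. WT marked the gene start itself with a region of 634 bp (chr9:88327339-88327973) that enclosed the whole printed promoter window. Next to it lay a WT region of 1394 bp, 1.69 to 3.08 kb into the gene, which was the longest of the window. KO had neither. The KO region, 5.25 kb into the gene, shared 388 bp with a WT region of 660 bp, at 17.6 (9.36 to 30.1) and 14.1 (8.08 to 23.0) normalised tags per kb in KO and WT. Before scaling, the WT regions without a KO counterpart at the promoter and next to it had 16.5 and 32.5 tags. Those totals are over 634 and 1394 bp, at 15.2 and 13.6 normalised tags per kb. The authors' caller required 12 tags in a 500 bp peak in KO and 13 in WT, a length shorter than either region. Under each of the 8 alternative settings the Nt5e window stayed lower by the rule of size.

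Lrrc32, which encodes GARP, the surface protein that docks latent TGF-beta on Treg cells, was among the most heavily marked genes in both libraries. Its window (body at chromosome 7, 98489305 to 98501831) held 16838 bp in 9 regions in KO and 17179 bp in 13 regions in WT, or 32.1% of the window in KO and 32.7% in WT. Among measured genes these shares stood at percentile 99.1 in KO and 99.2 in WT. The body was covered to 49.4% in KO and 41.2% in WT. Around the lower-coordinate end of the gene, KO had a region of 3458 bp (chr7:98487606-98491064) with 75.7 normalised tags. WT had 2 regions there, of 1395 bp and 4186 bp, with a gap of under 1 kb between them. The KO region and the first of these were the densest of the window, at 21.9 (18.0 to 26.3) tags per kb in KO and 22.4 (16.8 to 29.2) in WT.

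Beyond its higher-coordinate end the Lrrc32 window was less covered in KO, with 1479 bp against 3754 bp in WT. On the lower-coordinate side, which reaches into Gucy2d, it held 9176 bp in KO and 8261 bp in WT. The sign of the whole-window difference, -341 bp, changed with the flank. With flanks of 5 kb it was 1429 bp, and with flanks of 50 kb it was -5665 bp.

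The cytokine genes Il10 and Ebi3 held short regions, and Ebi3 held none in WT. Il10 encodes the inhibitory cytokine interleukin 10, and its body (chromosome 1, 131019845 to 131024970) held no region in either library. The window held 1833 bp in 3 KO regions and 1483 bp in 2 WT regions, all on the lower-coordinate side. The region about 17.3 kb out was found in both, with 1104 bp and 16.6 (10.9 to 24.1) normalised tags per kb in KO, and 983 bp and 16.9 (11.3 to 24.3) in WT. A short region stood at 8.6 kb in KO alone, and another, nearer the gene at 4.71 kb, in WT alone. The third KO region, of 1362 bp, lay across the window's edge with 229 bp inside.

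Ebi3 encodes the beta subunit that pairs with p28 in interleukin 27 and with p35 in interleukin 35, a cytokine of Treg cells. Its window (body at chromosome 17, 55952623 to 55957022) held 4 KO regions with 2215 bp and no WT region, and it was the only one of the 10 windows with no WT region. The KO region in the body was of 500 bp with 12 tags before scaling and a deposited score of 12.5, near the KO calling threshold of 12. Among the 4 the tag counts ran between 11 and 15.5. Zfp119b overlaps Ebi3, and the regions in and before the Ebi3 body lie in Zfp119b too, and the remaining 2 lie in Shd. Without regions under 1 kb the Ebi3 window held none in either library. It was also not counted as higher among the higher-scoring regions, with 715 bp in KO and 0 bp in WT.

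Of the 3 surface receptor genes, Nrp1 was lower in KO by the rule of size, and Gpr83 and Izumo1r passed it in neither direction. Nrp1 encodes neuropilin 1, a receptor of semaphorins and VEGF that is high on thymus-derived Treg cells in mice. Its body of 146886 bp (chromosome 8, 128358591 to 128505476) is the longest of the 10. The window held 6226 bp in 9 KO regions and 14535 bp in 16 WT regions, the largest difference among the members, at -8309 bp. In the body, 5 KO regions covered 2.79% and 13 WT regions 7.89%.

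The longest Nrp1 regions of both libraries lay in an early stretch of the gene. Between 24.1 and 33.7 kb from the start, WT had 4 regions, including neighbours of 2007 bp and 2169 bp. KO had 3 regions in the same stretch, of 1317, 680 and 641 bp, each sharing bases with WT regions. The WT region of 2169 bp, which had 40.2 normalised tags and was the strongest of the window, had no base in a KO region. Another WT region of 1487 bp, 52.0 kb into the gene, also had none. At 90.1 to 90.8 kb, where both libraries had a region, the density was 16.6 (9.51 to 27.0) tags per kb in KO and 15.7 (8.50 to 26.7) in WT. Just before the gene start, KO alone had 2 regions of 500 bp, and the promoter window of Nrp1 was in no region of either library. The Nrp1 window did not pass the rule of size among the higher-scoring regions (5577 bp in KO and 7420 bp in WT) and after division by the genome-wide ratio.

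Izumo1r and Gpr83 are neighbours on chromosome 9, and their windows share 24976 bp with 5 KO and 4 WT regions, so they are not independent. Izumo1r encodes folate receptor 4, also called Juno, which mouse Treg cells carry at high levels. Gpr83 encodes a G protein-coupled receptor found in the expression signature of mouse Treg cells. The Izumo1r window (body at 14885814 to 14903951) held 18607 bp in KO and 16859 bp in WT, or 32.0% of the window in KO and 29.0% in WT, and its body was covered to 47.9% in KO and 45.9% in WT. The longest region of all 10 windows stood over its start in both libraries, with 7210 bp in KO (chr9:14899879-14907089) and 7666 bp in WT (chr9:14898119-14905785). They shared 5906 bp and enclosed the printed promoter window. Density was 20.2 tags per kb (17.6 to 23.1) in KO and 16.9 (14.7 to 19.3) in WT, intervals that overlap. The KO region has a score at the calling threshold and drops out among the higher-scoring regions, where the window held 5738 bp in KO and 15003 bp in WT.

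In the Gpr83 window (body at 14859880 to 14870789) covered length was 7804 bp in KO and 7585 bp in WT, in 7 regions each, yet the regions lay in part at other places. KO had a region of 1142 bp over the gene start (chr9:14859865-14861007), where WT had none. Inside the gene, WT had a region of 2406 bp, of which KO held 680 bp. The gene body was covered to 16.6% in KO and 26.6% in WT, and the stretch between Gpr83 and Izumo1r carried regions in both libraries. Before the gene, 2 short WT regions had no KO counterpart.

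Capg, which encodes an actin-capping protein of the gelsolin family and is expressed in activated Treg cells as well as in macrophages, was well marked in both libraries. Its window (body at chromosome 6, 72538282 to 72562983) held 9181 bp in 8 KO regions and 11065 bp in 13 WT regions, or 14.2% of the window in KO and 17.1% in WT. The printed promoter window lies inside the RefSeq gene body, since the table's gene reaches further out, and there KO had a single region of 4002 bp (chr6:72549052-72553054). WT had a region of 2013 bp at the same place and another of 627 bp after a gap, both nearly or wholly inside the KO region. Over this stretch the density was 16.2 (13.1 to 19.8) tags per kb in KO, against 20.3 (15.8 to 25.6) in the longer WT region. The 788 bp WT region at the annotated start of the gene body, 0.097 to 0.885 kb into it, had no KO counterpart. Nor had the WT region of 1119 bp at 19.7 kb. Some flank regions lie in the neighbouring genes Sh2d6 and Elmod3.

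Gzmb encodes granzyme B, a serine protease that kills target cells once perforin lets it in. In its body (chromosome 14, 56258836 to 56262334) each library had 1 region of 500 bp, and these shared 311 bp at the same density of 16.9 tags per kb. The whole difference of the window, 1000 bp in KO against 2150 bp in WT, lay in the flanks, and with flanks of 5 kb the window held 500 bp in each library. There WT had regions of 1014 bp in Gzmc and of 636 bp on the other side, and KO 1 region of 500 bp elsewhere. NK and CD8 T cells also use granzymes, and 7 of their markers were set beside Gzmb. In the gene bodies none of the 7 held a region in KO and 5 did in WT, with a summed cover of 0 bp in KO and 2774 bp in WT. Over all measured genes 56.5% held a body region in KO and 61.8% in WT. In the windows, which carry the Gzmb difference, 1 of the 6 measured markers was lower by the rule of size and none higher. Over all measured genes 21.1% were lower and 7.58% higher, so this count does not set the markers apart. Their median difference was -243 bp, against -500 bp over all measured genes. The lower marker was Gzma, with 500 bp in KO and 2711 bp in WT. Klrb1c had 2629 bp in KO and 2000 bp in WT, and Eomes had 500 bp in each. The part of such cells in the Gzmb value was not tested.

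**Figure D3:**
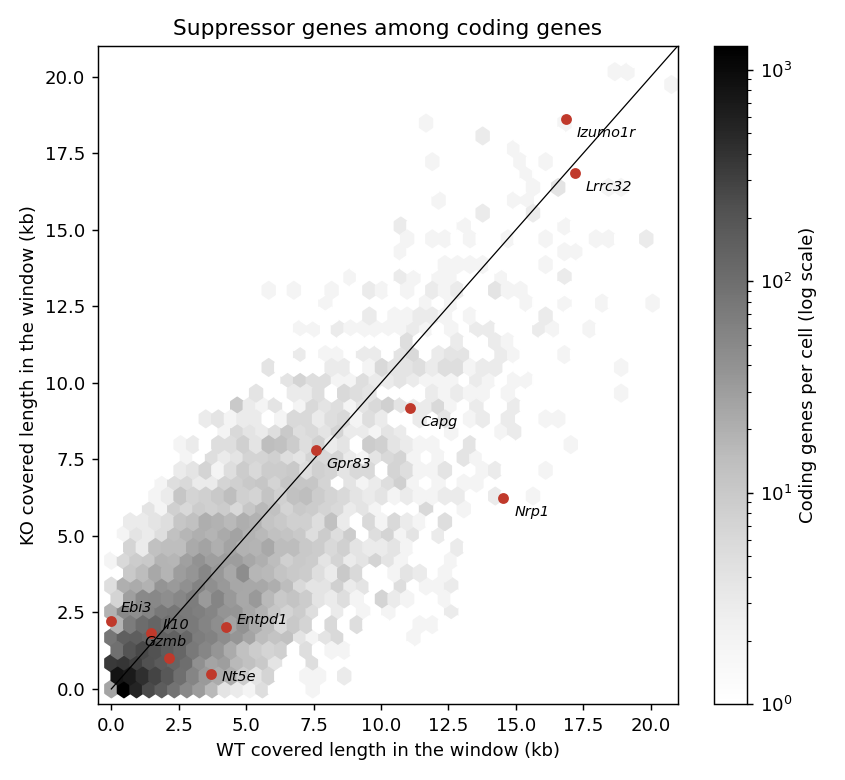
Covered length in the window in WT (x axis, kb) and KO (y axis, kb). Grey cells count coding genes on a log scale, with 289 genes beyond 21 kb left out, and red points are the 10 suppressor genes. The line marks equal length. Izumo1r and Lrrc32 lie near the line at the upper end and Nrp1 lies well below it.

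How far the libraries marked the same bases differed between the genes. Of the bases covered in either library, those covered in both made up 56.1% for Izumo1r, 42.1% for Il10, 42.0% for Lrrc32, 31.4% for Gpr83 and 30.7% for Capg. The share was 17.5% for Nrp1, 11% for Gzmb, 10.2% for Nt5e, 8.66% for Entpd1 and 0% for Ebi3. Counted by region, 34 of 54 KO regions (63.0%, with an exact 95% interval of 48.7 to 75.7) overlapped a WT region by at least 1 bp, against 41.0% of all KO regions. In the other direction it was 32 of 72 (44.4%, 32.7 to 56.6), against 29.8% of all WT regions. Sharing went with length in the whole lists, where 59.2% of KO regions over 500 bp were shared and 25.7% of those of 500 bp. In the suppressor windows 27 of 33 longer and 7 of 21 shorter KO regions were shared. These intervals cover counting error only and take regions as independent, although several lie in 1 gene. The suppressor windows were also more densely covered, to 7.77% in KO and 9.63% in WT. Over the windows of all coding genes pooled it was 1.80% in KO and 2.37% in WT. The part of this denser cover in the shared percentage was not tested.

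Where both libraries had a region, tag density was set side by side. The windows held 36 pairs of overlapping regions, made up of 33 KO and 31 WT regions, so some regions stand in more than 1 pair. In all 36 the Poisson 95% intervals of KO and WT overlapped, which is not a test of the difference within a pair. The KO density was the higher in 22 pairs and the lower in 13, with a median KO to WT ratio of 1.08 and a range of 0.80 to 1.45. The ratio of 1.45 belonged to a region before the start of Izumo1r (19.4 in KO and 13.4 in WT). That of 0.80 belonged to the long KO region over the printed Capg promoter window. Because both libraries were scaled to the same total, a change of H3K36me2 in the whole genome would not show in these ratios. Only regions called in both libraries enter, and each density depends on where the caller set the ends. Signal below the calling threshold does not enter. Scaled to 10000000 tags, that threshold was 8.11 tags in a 500 bp peak in KO and 7.58 in WT. The part of the higher KO threshold in these ratios was not tested. Per region, the mean was 20.1 normalised tags over 1157 bp in KO and 17.5 over 1097 bp in WT.

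**Figure D4:**
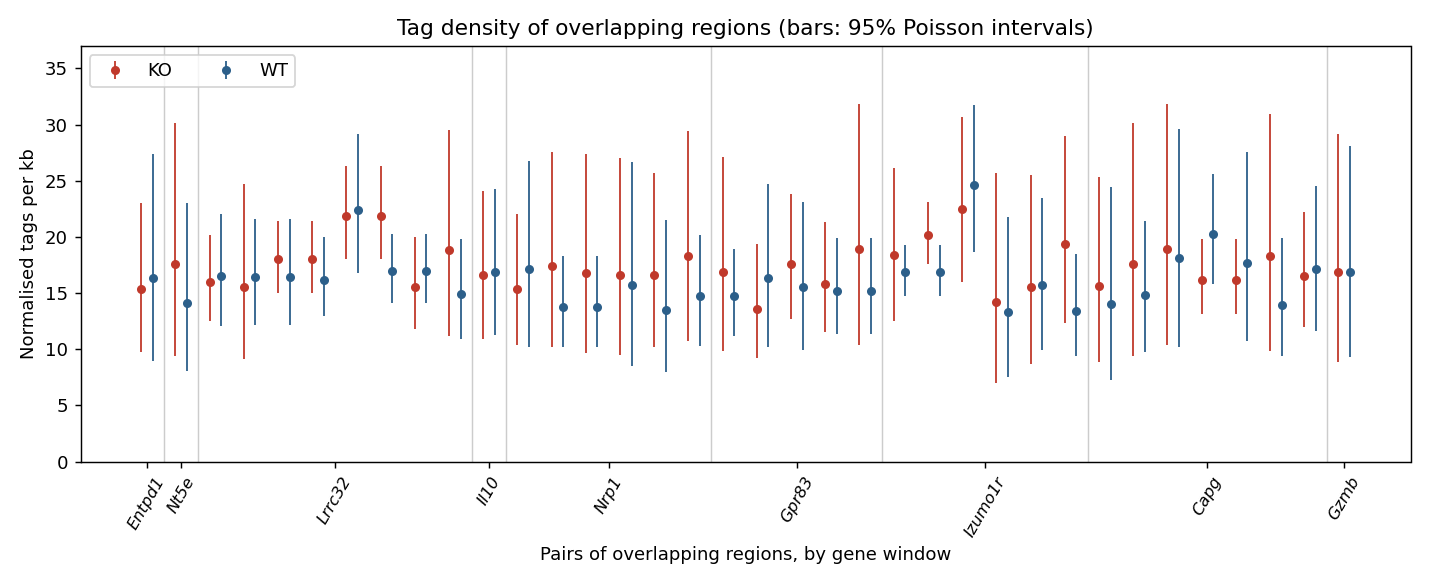
Normalised tags per kb in the 36 pairs of overlapping regions, KO (red) left of WT (blue), grouped by gene window along the x axis, with 95% Poisson intervals as bars. The intervals of each pair overlap, and the points of both libraries lie between 13 and 25 tags per kb.

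Other genes of the same pathways were taken from lists made by name. Among 33 binding partners and pathway members of the 10 genes, 32 had a region in their window. Of these, 12 were lower in KO by the rule of size and 1 was higher, beside 21.1% and 7.58% of all measured genes. The list holds 33 names chosen with earlier results known, so its count is a description. The median difference was -1382 bp, against -500 bp over all measured genes. Plxna1, a plexin that signals semaphorin binding together with neuropilins, had 13218 bp in KO and 32027 bp in WT, and its body was covered to 20.9% in KO and 47.8% in WT. Gsn, which encodes gelsolin, the namesake of the Capg family, had 5017 bp in KO and 11004 bp in WT. Ada, whose enzyme removes the adenosine that CD73 makes, had 2910 bp in KO and 6914 bp in WT. Il27, which encodes the p28 partner of the Ebi3 product, was the higher one, with 2916 bp in KO and 1000 bp in WT. Gzma and Prf1 stand both in this list and among the NK and CD8 markers.

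Among 22 other effector and surface molecules of Treg cells, 20 were measured, of which 2 were lower and 2 higher in KO, beside 21.1% and 7.58% of all measured genes, with a median difference of -405.5 bp. Havcr2, which encodes the inhibitory receptor TIM-3, had 1000 bp in KO and 3070 bp in WT. Fgl2, which encodes a secreted suppressor protein, had 1283 bp in KO and 2605 bp in WT. Klrg1, a receptor of terminally differentiated cells, had 3493 bp in KO and 1186 bp in WT, and Ctla4, the inhibitory receptor that takes CD80 and CD86 from antigen-presenting cells, had 1216 bp in KO and 0 bp in WT. None of these 4 held a region in its gene body. Among 20 transcription factors known to act on such genes, 4 windows were lower in KO and none higher, a share close to the 21.1% lower over all measured genes, with a median difference of -150.5 bp. Among the lower ones were Nfil3 (0 bp in KO and 2650 bp in WT) and Myb (1500 bp in KO and 3774 bp in WT).

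Genes with a similar pattern were sought for the 2 members with the most cover. Likeness was the Euclidean distance over 4 values, the body and window covered share in each library, among 15524 coding genes. Nearest to Izumo1r were Ago2, at a distance of 4.95 percentage points, and Abcb9, at 5.90. Ago2 was covered over its body to 43.8% in KO and 45.6% in WT. Nearest to Lrrc32 were Tmprss6, at 3.39 points, and Pip5k1c, at 5.56. Tmprss6 was covered over its body to 49.5% in KO and 41.3% in WT. With 1 library per genotype the order among near genes has no error estimate.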

How the data were processed

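Regions came from the authors' deposited lists, 1 per library, which HOMER findPeaks called in histone style without a control, per the file headers. The build was mm10, and the tools listed per the submitters' processing notes were HOMER, Bowtie2, Picard, deepTools and Trim Galore, with no versions or roles. The deposited signal of each region is a normalised tag count, which HOMER scaled to 10000000 tags, per the file headers. Undoing that scaling and rounding to 0.5 gave the tags behind the Poisson intervals. These can fall below the calling threshold, as with 10.5 tags in a KO region of the Izumo1r window. They are thus not the same count that the caller held to its threshold. The score deposited by the authors has values near the calling threshold even in long, strong regions, so it does not follow total signal, and it served only in alternatives. Scaled to 10000000 tags, the calling threshold was 8.11 tags in KO and 7.58 in WT, so calling was stricter in KO.

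Gene positions and promoter sequences came from RefSeq GRCm38.p6, and strand from the promoter windows, which the table used here holds for 8 members. Overlaps used Python 3.11.15, numpy 2.4.6, pandas 2.3.3 and scipy 1.17.1, with 1 bp counted as shared. Lengths are end minus start. The interval code was tested on simulated data. Tags are PCR reads without molecular identifiers, so intervals cover counting error only. The members and lists were chosen with earlier results of these data known. Named were the 10 members, Nsd2, marker genes at 0, genes overlapping a described region, up to 3 list genes per direction past the rule of size, and the 2 nearest genes of the 2 most covered members. Some genes that this rule picked are not reported here and stay in all counts.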

Additional observations from a re-analysis of the deposited data

How the results depend on the processing

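No paired analysis was possible because each genotype had 1 library. The pooled KO percentage of covered length, 80.7%, ran between 72.1% and 109% over 8 alternatives, the last after dividing KO cover by the genome-wide ratio, and that of region number, 75.0%, between 67.7% and 94.7% over 7. The 4 windows lower in KO became 2 with flanks of 50 kb and 1 after that division, which left Nt5e. The 1 higher window became 2 without regions under 1 kb, where Il10 and Entpd1 were the ones counted. In that setting the Entpd1 difference turned to 1016 bp. Shared KO regions, 63.0%, came to 38.9% among the 50% of regions with the highest score, a setting for which no whole-list share was computed. That setting removed the longest KO region of Izumo1r, whose score equals the calling threshold, and the Izumo1r difference was then -9265 bp, with 5738 bp in KO and 15003 bp in WT. Nt5e and Nrp1 kept their direction under all 8 alternatives, and Nrp1 passed the rule of size under 6 of them. Entpd1 passed it as lower under 3, Gzmb under 4 and Ebi3 as higher under 6. Lrrc32 changed sign under 4, Il10 and Izumo1r under 2, and Gpr83 and Capg under 1. In another alternative, WT regions of 500 bp were dropped where their deposited score was below the KO threshold, scaled to 13.9 tags. The score was read there as the tag count of the peak. The pooled percentages were then 88.4% by length and 91.5% by number. In that setting the whole lists came to 92.1% by length and 104% by number. The 500 bp regions of the 10 windows had 10.5 to 15.5 tags, near and in part below the calling threshold, and the effect of depth was not tested.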
